A study of Mus musculus with 14 samples.

Results

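The contractile apparatus of vascular smooth muscle was examined through 9 genes (Acta2, Tagln, Myh11, Pln, Myl9, Lmod1, Cnn1, Des and Filip1l) out of the 24421 genes counted in hippocampal RNA. The genes were chosen by symbol because their counts had been seen to go up and down together from mouse to mouse, so their joint variation within a genotype is described below without a test. All 9 had enough reads to be compared between the genotypes. RNA came from 7 male mice labelled LPAR2-/- and 7 male wild-type (WT) mice, all naive, of a mixed 129.C57Bl6 background and aged 10 to 12 weeks on the labels. The series description gives a higher age than that, and the age was therefore treated as unknown. Lpar2 encodes a receptor for lysophosphatidic acid, and the knockout allele removes part of its exon 2. Since knockouts and controls came from colonies of their own, genotype and colony cannot be told apart. Each mouse gave 1 library of ribosomal RNA-depleted total RNA. The authors name the dentate gyrus as the tissue in their results and the hippocampus in their methods, so the piece taken is not certain.

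Smooth muscle cells wrap the arteries and arterioles of the brain and set their diameter. They contract when calcium activates myosin light chain kinase, which phosphorylates the regulatory light chain and lets myosin pull on actin. Their contractile genes are switched on together by serum response factor (SRF) and its coactivator myocardin, which bind a short element called the CArG box. Capillary pericytes, the other mural cells of brain vessels, carry far less of this apparatus.

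Between 15434620 and 23258949 reads per mouse labelled LPAR2-/- and between 16373410 and 21992980 reads per WT mouse were counted on genes. The neuronal gene Slc17a7 and the granule cell gene Prox1 had at least 21360 and 708 counts in every library. Counts of Lpar2 itself went against the label. It had 9.55 ± 1.41 CPM in libraries labelled LPAR2-/- and 2.36 ± 0.676 CPM in WT libraries (mean ± SD of 7 mice each), a log2 fold change of 2.01 (SE 0.157, adjusted p = 8.2e-07, edgeR). CPM are counts scaled to the size of the library. These counts cover the whole gene and do not separate transcripts with and without the deleted part, and directions are therefore given for the mice as labelled.

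The sequences before the start sites are shown because the genes moved together. A CArG box has CC, a core of 6 bases that are A or T, and GG, and it was searched in the 250 bases before each start site of RefSeq (build GRCm38.p6, the same assembly as mm10), where it reads alike on both strands. Windows were found for 7 of the 9 genes, 8 windows in all because Filip1l has a pair of start sites, and none was given for Tagln and Myh11. A strict box stood in the windows of 2 genes, Myl9 and Filip1l, and was present in 1.47% of all 32817 windows. With 1 core base allowed to be C or G, 3 genes had a box, among them Acta2 with a pair of boxes, against 8.60% of all windows. The stretches around these boxes are printed 5′ to 3′ with the boxes in capitals.
Acta2 (chr19:34255374-34255482, minus strand): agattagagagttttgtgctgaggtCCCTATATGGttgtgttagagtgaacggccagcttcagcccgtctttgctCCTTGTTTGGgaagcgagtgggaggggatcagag
Myl9 (chr2:156775278-156775399, plus strand): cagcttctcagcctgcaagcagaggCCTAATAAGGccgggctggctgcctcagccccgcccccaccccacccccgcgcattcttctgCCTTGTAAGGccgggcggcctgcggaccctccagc
Filip1l, downstream start site (chr16:57549155-57549214, plus strand): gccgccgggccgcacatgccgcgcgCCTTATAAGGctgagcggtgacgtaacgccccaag
The boxes of Acta2 begin at -84 and -34 from the start site, those of Myl9 at -161 and -99, and that of Filip1l at -62. The letters were not found in the windows of Pln, Lmod1, Cnn1 and Des, which says nothing of sites elsewhere in these genes.

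The thin filament genes come first. Acta2, smooth muscle alpha-actin, the main actin of the contractile filaments, lies on chromosome 19 (34240336 to 34255373, minus strand of mm10). It had from 12.0 to 70.2 CPM, with a median of 53.6, in the libraries labelled LPAR2-/- and from 9.04 to 58.5 CPM, with a median of 19.7, in WT mice. The lowest and highest mouse of a genotype differed 5.85-fold and 6.46-fold, and the ranges of the genotypes overlapped. The other 3 muscle actin genes were lower in counts. Actc1 had at most 2 counts, the visceral smooth muscle actin Actg2 at most 21 and the skeletal Acta1 between 75 and 122, against 185 to 1369 for Acta2.
Tagln (transgelin or SM22, an actin-binding protein of differentiated smooth muscle, chromosome 9 from 45929628 to 45936058) had from 8.06 to 40.6 CPM in the libraries labelled LPAR2-/-, with a median of 24.4. In WT mice it had from 7.09 to 28.8 CPM, with a median of 11.8. Cnn1 (calponin, which binds actin and restrains the ATPase of myosin, chromosome 9 from 22099253 to 22109221) was the least abundant of the genes, with 10 to 87 counts per mouse labelled LPAR2-/- and 8 to 46 per WT mouse. Its CPM ran from 0.433 through a median of 2.33 to 4.46 in the former and from 0.378 through 0.592 to 2.30 in the latter. The 10.3-fold range of Cnn1 in the libraries labelled LPAR2-/- was the widest of the 9 genes, at counts where the lowest mouse had 10 reads.
Lmod1 (leiomodin 1, which nucleates actin filaments, chromosome 1 from 135324813 to 135368065) had from 2.25 to 7.42 CPM in the libraries labelled LPAR2-/- (median 6.10) and from 2.22 to 5.95 CPM in WT mice (median 2.80). Its lowest values were nearly equal in the genotypes.

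The thick filament genes moved over a similar span. Myh11, the smooth muscle myosin heavy chain and the most specific marker of the cell type, lies on chromosome 16 (14194527 to 14291408, minus strand). It had from 15.03 to 64.2 CPM (median 35.4) in the libraries labelled LPAR2-/- and from 9.43 to 40.6 CPM (median 16.97) in WT mice. Myl9, the regulatory light chain that myosin light chain kinase phosphorylates, lies on chromosome 2 (156775464 to 156781657). It had from 13.5 to 38.7 CPM (median 33.5) against 9.63 to 28.3 CPM (median 15.2), and its lowest and highest mice differed 2.86-fold and 2.93-fold, less than those of Acta2 or Myh11. Of the libraries labelled LPAR2-/-, 5 of 7 had more Myl9 than the highest WT mouse, the most for any of the 9 genes.

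The other genes serve calcium handling and the cytoskeleton. Pln (phospholamban, the inhibitor of the calcium pump of the sarcoplasmic reticulum, chromosome 10 from 53337686 to 53345999) had from 1.30 to 8.62 CPM (median 6.34) in the libraries labelled LPAR2-/- and from 0.978 to 7.10 CPM (median 1.56) in WT mice. In WT mice this was a 7.26-fold range, the widest of the 9 genes in that genotype, with 5 mice at or below 2.23 CPM and the other 2, mice 3 and 4, at 5.74 and 7.10 CPM. Des (desmin, the muscle intermediate filament, chromosome 1 from 75360292 to 75368579) had from 2.30 to 6.68 CPM (median 4.96) against 1.08 to 4.55 CPM (median 2.79). Filip1l (filamin A interacting protein 1-like, chromosome 16 from 57353277 to 57572804) had from 2.77 to 8.40 CPM (median 6.59) against 2.40 to 8.0 CPM (median 4.02). Filip1l overlaps Cmss1, Pln overlaps Cep85l and Tagln overlaps Pcsk7, all on the opposite strand, and the reads were counted by strand.

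**Figure D1:**
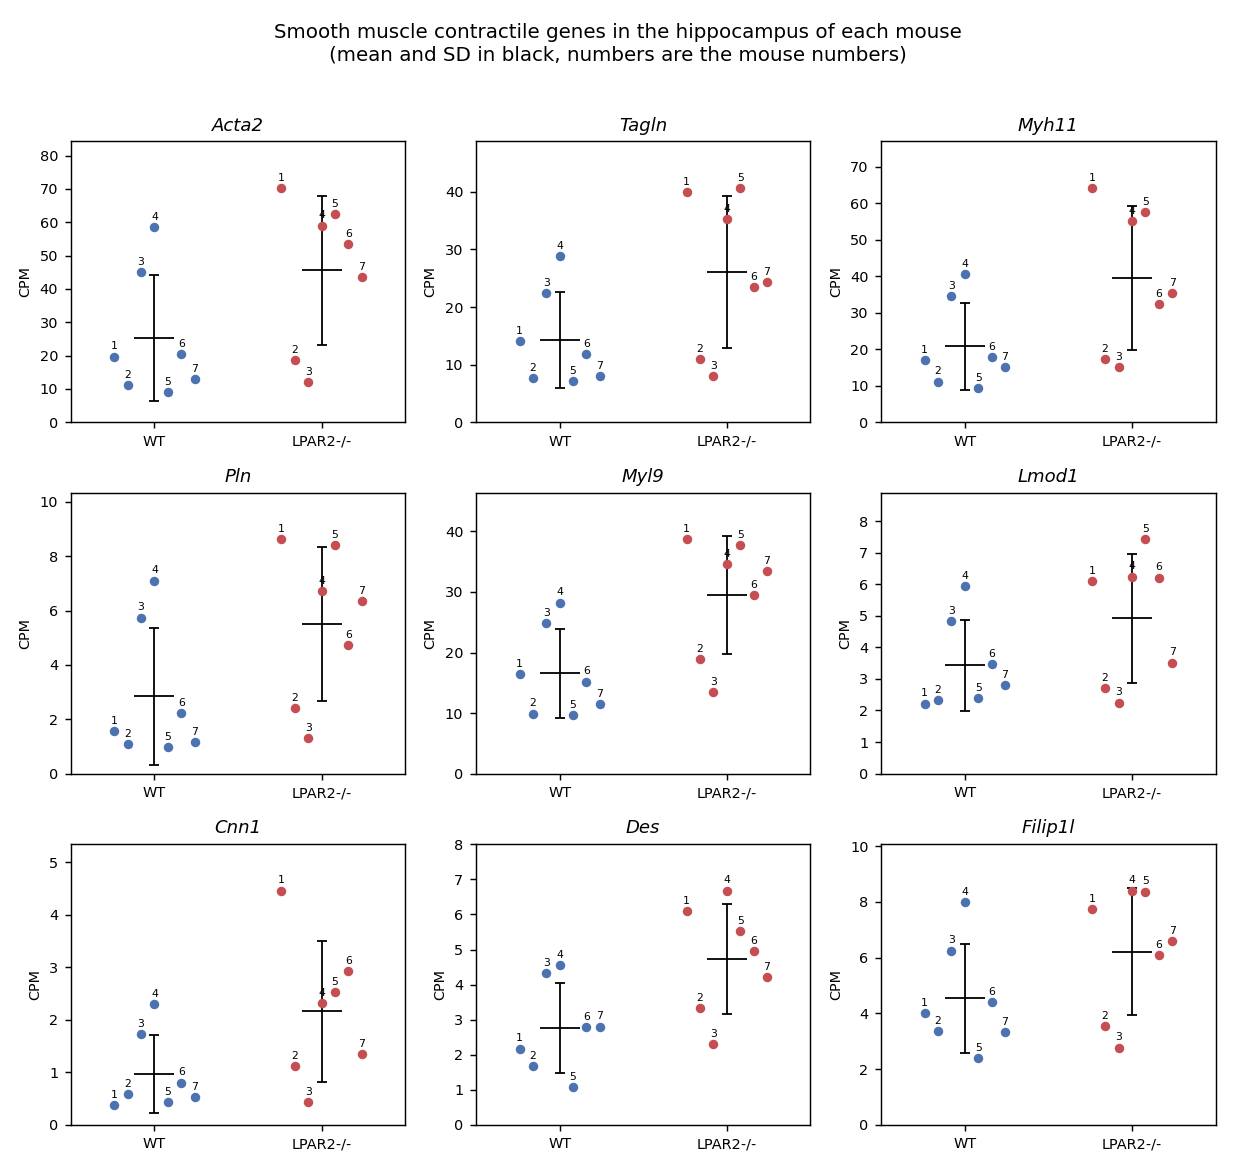
Each panel plots 1 gene, with CPM on the y axis from 0 and the 2 genotypes on the x axis. Points are mice with their numbers, and black bars give the mean and SD of 7 mice. Mice 2 and 3 labelled LPAR2-/- lie low in every panel, and WT mice 3 and 4 lie above the other WT mice in every panel.

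Per base of exon, the order of the levels was Myl9, Acta2, Tagln, Myh11, Pln, Filip1l, Des, Lmod1 and Cnn1. In RPKM (CPM per 1000 bases of exon), Myl9 had 27.2 ± 8.94 (SD, n = 7) in the libraries labelled LPAR2-/- and 15.3 ± 6.80 in WT mice, and Cnn1 had 1.09 ± 0.674 and 0.487 ± 0.376. Myl9 was above Acta2 in 14 of 14 mice, Tagln above Myh11 in 14 and Myh11 above Pln in 14. Acta2 and Tagln could not be ordered, since Acta2 was the higher in 9 of 14 mice, nor could Pln and Filip1l (8 of 14), Filip1l and Des (8 of 14) or Des and Lmod1 (10 of 14). Lmod1 was above Cnn1 in 13 of 14 mice.

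The same mice were high or low for nearly every gene. Among the libraries labelled LPAR2-/-, mouse 3 had the lowest value for 9 of the 9 genes, and mouse 2 also lay below the median for all of them. The highest value was that of mouse 1 for 5 genes, of mouse 4 for 2 and of mouse 5 for 2. Among WT mice, mouse 4 had the highest value for all 9 genes, and the lowest was that of mouse 5 for 7 genes and of mouse 1 for Lmod1 and Cnn1.
Summed over the 9 genes, the level ran from 57.6 to 246 CPM in the libraries labelled LPAR2-/- (median 164) and from 42.5 to 184.0 CPM in WT mice (median 77.6), a 4.27-fold and a 4.33-fold range. Averaged over the 9 genes, log2 CPM was 4.03 in mouse 1, 3.93 in mouse 5, 3.83 in mouse 4, 3.52 in mouse 6, 3.36 in mouse 7, 2.54 in mouse 2 and 1.99 in mouse 3 labelled LPAR2-/-. In WT mice it was 3.65 in mouse 4 and 3.36 in mouse 3, and between 1.63 and 2.52 in the other 5. WT mice 3 and 4 thus lay within the range of the libraries labelled LPAR2-/-, and mouse 3 of the latter lay within the range of the other 5 WT mice. In bulk RNA, fewer smooth muscle cells in a dissected hippocampus and less contractile mRNA per cell cannot be told apart. The mean of the 9 genes had a Pearson r of -0.36 with the total count of the library in the libraries labelled LPAR2-/- and of -0.14 in WT mice (Spearman's rho -0.29 and -0.43, n = 7 each).

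**Figure D2:**
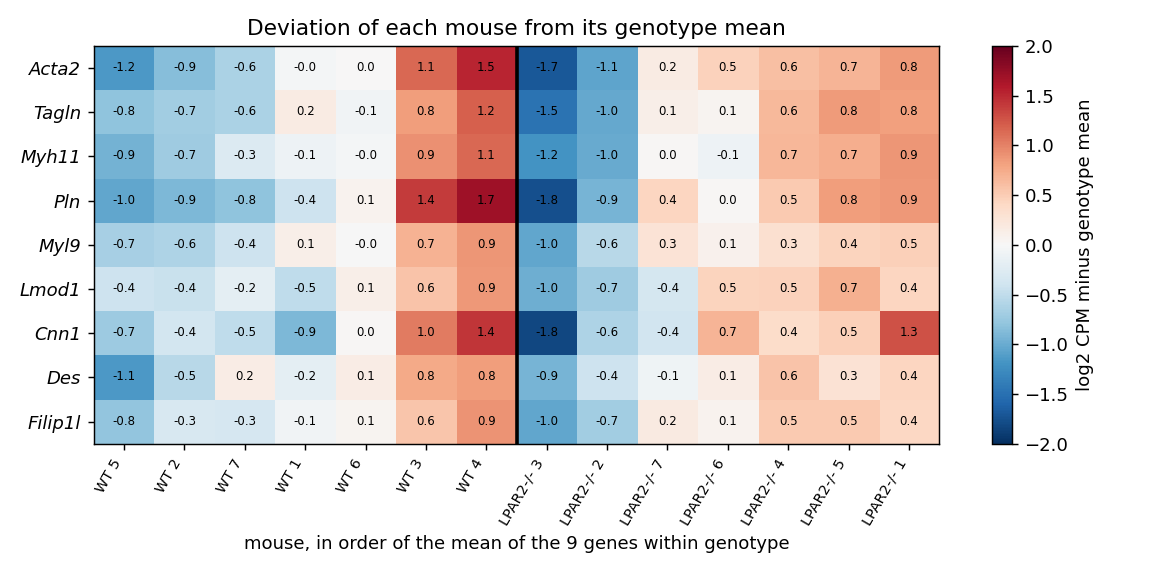
Rows are the 9 genes and columns the 14 mice in order of their mean level within each genotype, WT left of the black line. Colour and number give log2 CPM minus the mean of the genotype, and in the columns of the lowest and highest mice all genes share a sign.

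The 9 genes varied more than most genes of the hippocampus. The SD of log2 CPM among mice of a genotype was between 0.53 (Des) and 1.02 (Cnn1) in the libraries labelled LPAR2-/- and between 0.54 (Lmod1) and 1.12 (Pln) in WT mice, where the median of all 14897 genes tested was 0.14 and 0.13. Acta2, with an SD of 0.98 and 1.01, ranked 97th and 50th of all genes, and counting error alone accounts for an SD of about 0.06 and 0.08 at its counts. For Cnn1, counting error accounts for about 0.26 and 0.39 of an SD of 1.02 and 0.90. Set beside the 500 genes nearest in level, each of the 9 genes varied more than at least 91.2% of them in the libraries labelled LPAR2-/- and more than at least 96.4% in WT mice, with the lowest shares for Des in the former and Lmod1 in the latter.
The genes also differed in amplitude. Regressed on the mean of the other 8 genes, Acta2 had a slope of 1.30 in the libraries labelled LPAR2-/- and of 1.38 in WT mice, and Pln 1.29 and 1.56. Myl9 had slopes of 0.70 and 0.77, Lmod1 0.78 and 0.64, Filip1l 0.77 and 0.72, and Des 0.64 and 0.82. Cnn1 had 1.24 and 1.10, Myh11 1.06 and 1.02, and Tagln 1.205 and 0.998. The slope was thus above 1 in both genotypes for Acta2, Pln, Cnn1 and Myh11 and below 1 in both for Myl9, Lmod1, Filip1l and Des.

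The 36 pairs of genes had a median Pearson r of log2 CPM of 0.95 over the 7 libraries labelled LPAR2-/- (0.85 to 1.00) and of 0.95 over the 7 WT mice (0.82 to 1.00). The lowest r was that of Cnn1 with Filip1l in the former and of Cnn1 with Des in the latter, and 29 and 24 of the 36 pairs had an r above 0.9. Spearman's rho had a median of 0.86 and 0.89. A single component held 94.6% and 93.7% of the variance of the 9 scaled genes. These points share their libraries and scaling, and no p is given because the genes were named for this pattern.
Acta2 was tied most closely to the rest, with an r of 0.99 to the mean of the other 8 genes in both genotypes. Among all other genes tested, 0.58% had an r above 0.9 with that mean in the libraries labelled LPAR2-/- and 0.81% in WT mice, and the median r was 0.01 and 0.02. Without the 2 mice farthest from the median (mice 3 and 2 labelled LPAR2-/-, WT mice 4 and 3), the r of Acta2 was 0.96 and 0.95 over the remaining 5 mice of each genotype. Myh11 then had 0.93 and 0.95. The r was lower without these mice for all 9 genes in both genotypes, and ran from 0.61 to 0.96 in the former and from 0.38 to 0.95 in the latter. It was 0.76 and 0.87 for Myl9, 0.94 and 0.79 for Tagln, 0.71 and 0.93 for Pln, 0.79 and 0.94 for Filip1l and 0.82 and 0.81 for Des. For Cnn1 the r was 0.61 in place of 0.91 and 0.38 in place of 0.92, and for Lmod1 0.68 in place of 0.93 and 0.58 in place of 0.94.
The proportions between the genes were steady for some pairs and not for others. The CPM of Acta2 over that of Tagln was 1.75 ± 0.263 (mean ± SD of 7 mice) in the libraries labelled LPAR2-/- and 1.64 ± 0.293 in WT mice, and that of Myl9 over Myh11 was 0.820 ± 0.190 and 0.845 ± 0.125. Pln over Acta2 was 0.120 ± 0.0189 and 0.105 ± 0.0172. Des over Acta2 varied more, at 0.121 ± 0.0446 and 0.129 ± 0.0447, and so did Cnn1 over Tagln, at 0.0823 ± 0.0298 and 0.0651 ± 0.0181.

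**Figure D3:**
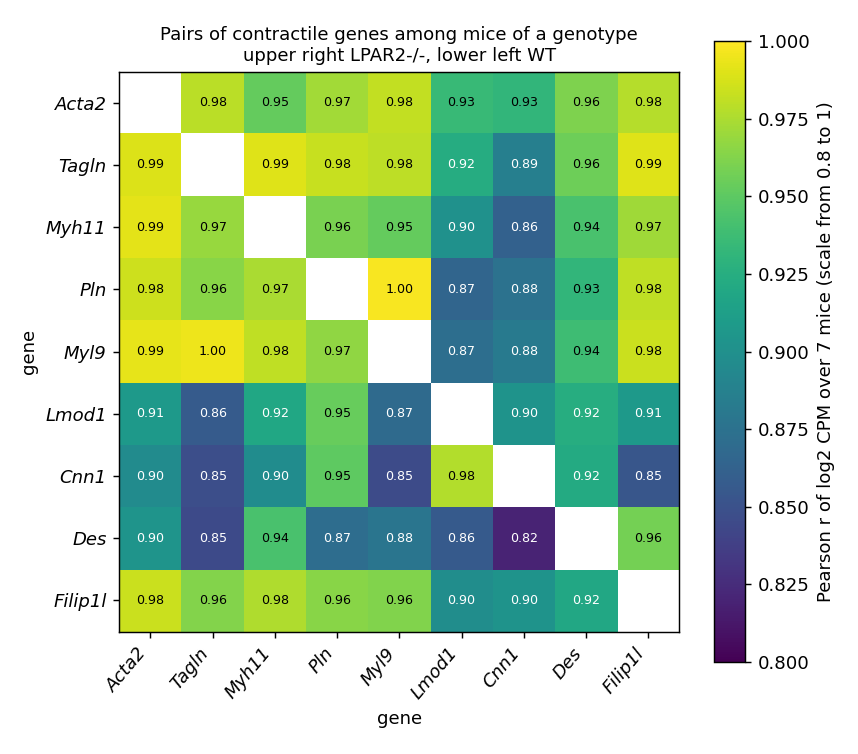
Each square gives the Pearson r of log2 CPM for a pair of genes over 7 mice, with mice labelled LPAR2-/- above the diagonal and WT mice below it. Colours start at 0.8, and the lowest values lie in the rows and columns of Lmod1, Cnn1 and Des.

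The genotypes were compared with the quasi-likelihood test of edgeR over all 14897 genes. None of the 9 genes passed an adjusted p of 0.05, a threshold that 6.77% of all genes passed (3.32% higher and 3.46% lower), and DESeq2 called 0 of them as well. All 9 had a higher mean in the libraries labelled LPAR2-/-, with log2 fold changes from 0.45 (Filip1l) to 1.15 (Cnn1) and a median of 0.85, where the median over all genes was 0.0029 and 51.1% of genes had a positive value. Since the genes move together among mice, their signs are not independent of each other. Without adjustment 4 of the 9 (Myh11, Myl9, Cnn1 and Des) had a p under 0.05, as did 22.4% of all genes.
Myl9 came closest, with a log2 fold change of 0.83 (SE 0.293, 95% interval 0.20 to 1.46, adjusted p = 0.111 from edgeR). For Acta2 the value was 0.85 (SE 0.476, interval -0.17 to 1.87, adjusted p = 0.316), an interval that includes equal levels. Myh11 had 0.93 (interval 0.07 to 1.79, adjusted p = 0.188) and Pln 0.95 (interval -0.18 to 2.07, adjusted p = 0.308). Tagln (0.87), Des (0.78) and Lmod1 (0.52) had adjusted p of 0.236, 0.133 and 0.326, and Cnn1 and Filip1l of 0.179 and 0.385.
Leaving out 1 mouse at a time changed the call of 1 gene. Without mouse 3 labelled LPAR2-/-, the lowest of its genotype, Myl9 had a log2 fold change of 0.96 and an adjusted p of 0.0474, whereas over all alternatives its adjusted p lay between 0.0474 and 0.197. For Acta2 the log2 fold change was 0.70 without WT mouse 5 and 1.21 without WT mouse 4.

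**Figure D4:**
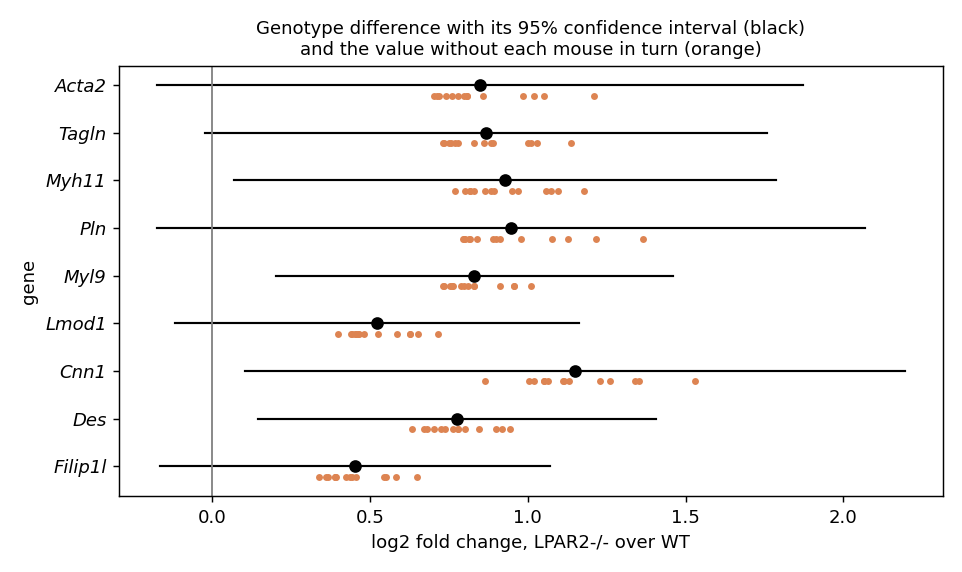
Black points give the log2 fold change of the libraries labelled LPAR2-/- over WT mice for each gene, and black lines its 95% interval. Orange points give the value with each of the 14 mice left out in turn, all of them above 0, and the intervals of 5 genes include 0.

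Further genes of the smooth muscle apparatus were taken from a list of 32, of which 31 were tested. In the libraries labelled LPAR2-/-, 24 had a positive and 7 a negative log2 fold change (median 0.14), and 1 passed the threshold. That gene, Itga8 (the alpha 8 integrin), rose from 54.3 to 65.0 CPM, with a log2 fold change of 0.26 (SE 0.0515, adjusted p = 0.00781 from edgeR), and had an r of 0.34 and -0.42 with the contractile genes among mice. Among mice, 5 of the 31 genes had an r above 0.9 with the mean of the 9 in the libraries labelled LPAR2-/- and 6 in WT mice, and the mean of the list had 0.77 and 0.99. The tropomyosin gene Tpm2 had 0.98 and 0.95, Smtn (smoothelin) 0.94 and 0.93, and Mylk, the light chain kinase, 0.94 and 0.91. Tpm1, with 224 and 219.8 CPM, had only 0.15 and 0.43, and Synm and Cacna1c had values between -0.45 and 0.07.
Of 15 genes that set the phosphorylation of the light chain, 13 were tested, 4 with a positive and 9 with a negative value (median -0.02). Rock2, a kinase that restrains myosin phosphatase, fell from 193 to 174 CPM, by a log2 value of -0.15 (SE 0.0369, adjusted p = 0.0220). That call was lost with the mouse number as a block (adjusted p = 0.0835 from edgeR). Mylk3, a kinase of the cardiac light chain, fell by 2.53 log2 units (SE 0.417, adjusted p = 0.00296), from 76 to 154 counts per WT mouse to 5 to 69 counts. Without mouse 2 labelled LPAR2-/- its log2 fold change was -3.35. With the 9 genes, Rock2 had an r of -0.40 in the libraries labelled LPAR2-/- and 0.06 in WT mice, and Mylk3 had -0.43 and 0.58. The mean of the 13 genes had an r of -0.15 and 0.68, and leaving out a mouse gave -0.37 (mouse 1) to 0.15 (mouse 3) in the former and 0.38 (mouse 4) to 0.83 (mouse 7) in the latter.
Of 19 symbols for SRF, its cofactors and the Notch pathway, which maintains mural cells, 17 were in the table, the other 2 being newer names of Mkl1 and Mkl2, and 15 were tested, all but Myocd and Foxs1. The mean of the 15 genes had an r of 0.92 and 0.89 with the set, while the median r of single genes was 0.64 and 0.46 and the lowest -0.38 and -0.21 (Fhl2). Mkl1 had 0.12 and 0.23, Mkl2 -0.22 and 0.37 and Csrp1 -0.32 and 0.74. Srf itself had 84.6 and 82.3 CPM and an r of 0.12 and -0.12, whereas Jag1, a Notch ligand, had 0.87 and 0.58, Klf4 0.79 and 0.71 and Csrp2 0.75 and 0.76. Myocd, the coactivator of smooth muscle, had at most 5 counts in any mouse and was not tested. Notch3, the Notch receptor of mural cells, followed the set (r of 0.90 and 0.88) and rose from 20.1 ± 2.76 to 26.5 ± 4.22 CPM (mean ± SD of 7 mice each), with a log2 fold change of 0.40 (SE 0.106, adjusted p = 0.0339). That call was lost without any of 8 mice (1, 4, 5 and 7 labelled LPAR2-/-, WT 2, 5, 6 and 7), with an adjusted p of up to 0.0791. It was also lost with the mouse number as a block (adjusted p = 0.0511 from edgeR).

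Markers of other cell types were laid beside the set in each genotype. Pericyte genes varied little, with an SD of the mean log2 CPM of 0.20 in the libraries labelled LPAR2-/- and 0.16 in WT mice against 0.77 and 0.76 for the 9 contractile genes, although their mean had an r of 0.84 and 0.90 with that of the set. The r of single pericyte genes ran from -0.02 (Ndufa4l2) to 0.92 (Vtn) and from -0.12 (Abcc9) to 0.97 (Anpep), with a median of 0.56 and 0.54. Vtn had 0.92 and 0.93, Anpep 0.90 and 0.97, Pdgfrb 0.52 and 0.78, Rgs5 0.25 and 0.49 and Abcc9 0.02 and -0.12. Between genotypes edgeR called none of the 12 (3 with an unadjusted p under 0.05, against 22.4% of all genes, lowest adjusted p 0.134). The 12 pericyte genes summed to 181 to 273 CPM in the former and 148 to 240 CPM in the latter. General endothelial genes likewise had an SD of 0.20 and 0.21 and an r of 0.65 and 0.97, with 306 to 432 and 274 to 418 CPM in sum.
Genes of arterial endothelium varied more, with an SD of 0.45 and 0.52, and had an r of 0.88 and 0.95 with the set. Some had few reads, as Gja5 with 1 to 47 and Bmx with 10 to 61 counts per WT mouse. The part of counting error in this SD was not tested. Bmx had 0.93 and 0.85, Sema3g 0.86 and 0.95 and Gja4 0.91 and 0.75. Gkn3 had 0.53 and 0.92 and Gja5 0.56 and 0.74, and only Efnb2 had a negative value (0.79 and -0.53). The 6 genes summed to 38.4 to 67.9 and 36.9 to 59.3 CPM. In WT mice the sum did not follow the set, since mouse 5, the lowest for the set, had the highest sum (59.3 CPM) and mouse 4, the highest for the set, had 51.5 CPM. Efnb2 had the most CPM of the 6 genes. Gkn3, a gene of arteriolar endothelium, rose from 1.59 to 5.39 CPM (log2 fold change 1.76, SE 0.451, adjusted p = 0.0325 from edgeR), but in 7 of the 14 fits without a mouse (1, 4 and 5 labelled LPAR2-/-, WT 2, 5, 6 and 7) its adjusted p was up to 0.0738.
Fibroblast genes of the meninges and vessel sheath moved as widely as the contractile genes. Their mean had an SD of 0.83 and 0.70 and an r of 0.93 and 0.94 with the set, and 13 of the 13 had a positive r in each genotype. They summed to 134 to 614 CPM in the libraries labelled LPAR2-/- and 107 to 434 CPM in WT mice, with mouse 3 lowest in the former and mouse 5 lowest in the latter, as for the contractile genes. Col1a1 had an r of 0.93 and 0.96, Slc6a13 of 0.93 and 0.93 and Aldh1a2, a meningeal gene, of 0.92 and 0.89. Dcn had 0.83 in the libraries labelled LPAR2-/- but only 0.09 in WT mice, the lowest of the list there. Between genotypes 12 of the 13 had a positive log2 fold change (median 1.09), against 51.1% of all genes. In edgeR 10 had an unadjusted p under 0.05, against 22.4% of all genes. Since most of these genes move together among mice, these values are not independent of each other. Lum passed the threshold (0.54, SE 0.117, adjusted p = 0.0132). With the mouse number as a block Lum did not pass (adjusted p = 0.0534 from edgeR). None of these markers was at 0 in any mouse, and the part of meningeal tissue or of large vessels in the variation of the contractile genes was not tested.

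**Figure D5:**
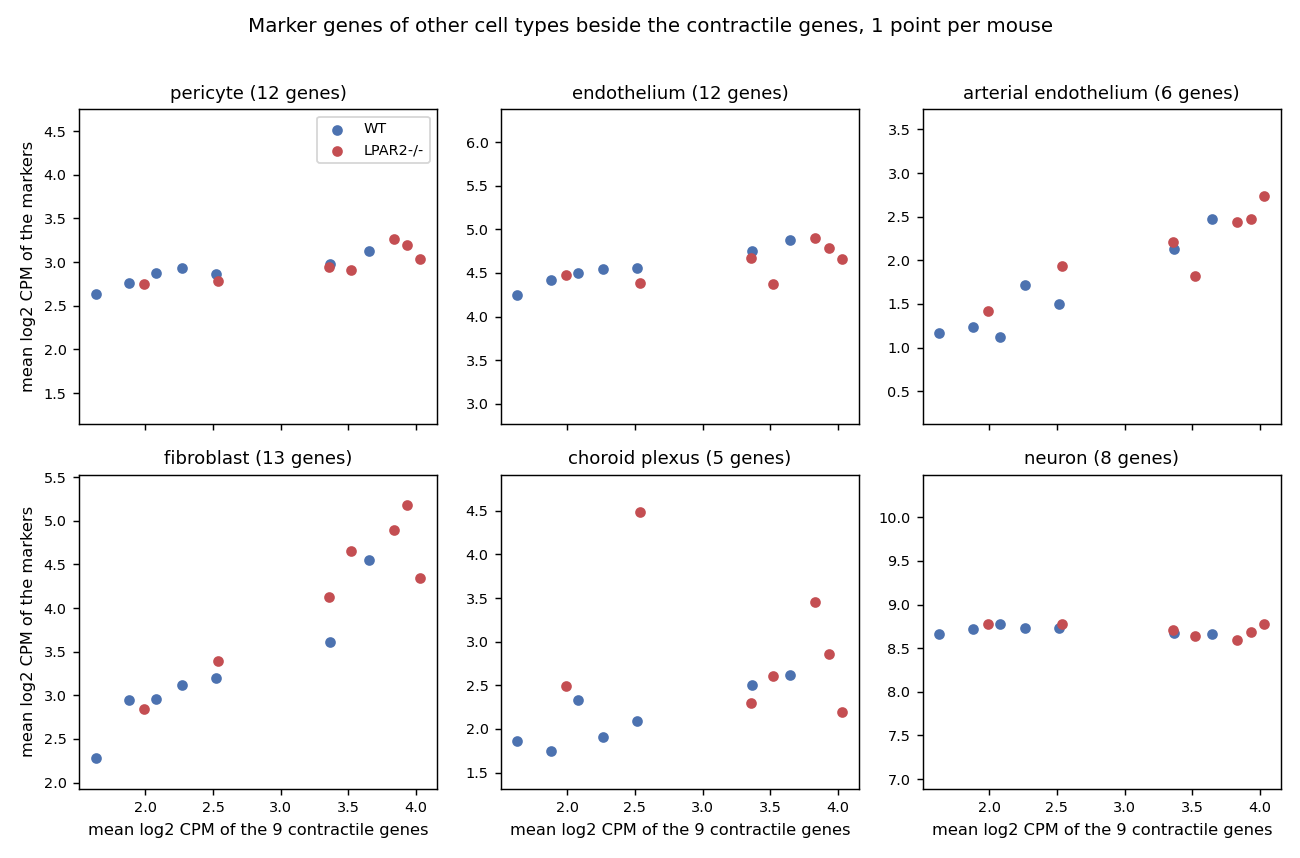
Each panel plots the mean log2 CPM of the markers of a cell type on the y axis against that of the 9 contractile genes on the x axis, 1 point per mouse and all panels over the same span of the y axis. Fibroblast and arterial markers climb along the x axis, pericyte and endothelial markers climb less, and neuronal markers stay level.

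The 10 genes most like the set were chosen from 14073 other genes of at least 1 CPM by their r with the mean of the 9 genes over the 14 mice after removal of the genotype means. They were Fbln5, Tpm2, Tinagl1, Tbx18, Bgn, Hspg2, Cdh5, Col1a1, Ptrf and Pcolce, with an r from 0.97 down to 0.94, and 34 genes (0.24%) were above 0.9. Fbln5 (fibulin 5, a protein of elastic fibres) had an r of 0.96 in the libraries labelled LPAR2-/- and 0.97 in WT mice, and Tbx18, a transcription factor of mural cells, 0.97 and 0.95. Bgn, Hspg2, Col1a1 and Pcolce encode proteins of the extracellular matrix or its processing, Ptrf a coat protein of caveolae and Cdh5 the endothelial cadherin. None of the 10 passed an adjusted p of 0.05 between the genotypes in edgeR, with log2 fold changes from 0.14 (Cdh5) to 1.09 (Col1a1, SE 0.385, adjusted p = 0.112).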

How the data were processed

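Hippocampal RNA of 7 mice labelled LPAR2-/- and 7 WT mice was sequenced by the authors on an Illumina instrument. To make the deposited counts, the authors removed adapters (cutadapt 1.18), mapped the reads with STAR (mm10) and assigned them to exons of each gene on the reverse strand (featureCounts 1.6.3). These counts were used without change. Gene lengths are those of the same table. A deposited table of normalized values was not used here because its decimal points could not be placed. Of 24421 genes, 14897 passed filterByExpr and were tested with the robust quasi-likelihood test of edgeR 4.0.16 (R 4.3.3, TMM, Benjamini-Hochberg adjustment, no covariates). Each mouse's value is given in CPM, and logarithms (log2) used a prior count of 2. Correlations were calculated within each genotype. DESeq2 1.42.0, its size factors, other filters, a prior count of 0.5, the mouse number as a block and each mouse left out in turn were the alternatives. In simulated data for the comparison of genotypes, 200 of 14897 genes drawn at random were given a log2 fold change of 1 or -1. Of these, edgeR recovered 91.5%, and 5.67% of its calls were false. Most genes vary less among mice than the 9 contractile genes, so this share does not apply to those 9. Named genes were the 9 genes, Lpar2, members of the lists that were called or have a defining role, and the 10 genes most like the set. The genes and lists were chosen with earlier results of these data known. Libraries held 15434620 to 23258949 counts, and counting error limits the genes of low count most.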

Additional observations from a re-analysis of the deposited data

How the results depend on the processing

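No fit reversed the direction of the 15 genes that were refitted (the 9 contractile genes, Itga8, Mylk3, Rock2, Notch3, Gkn3 and Lum). Of the 9 contractile genes, 0 passed in every fit but that without mouse 3 labelled LPAR2-/- (1), so that leaving out a mouse gave between 0 and 1. At least 10 counts in every library excludes Cnn1 and Mylk3. For the other smooth muscle genes DESeq2 called 2, and leaving out a mouse gave 1 to 2 (2 without mouse 3 labelled LPAR2-/- or WT mouse 1). For the light chain genes DESeq2 called 3 against 2, and 1 passed with at least 10 counts and 1 with a replicate block by mouse number. For SRF and Notch genes the replicate block left 0, and leaving out a mouse gave 0 to 2. The labels give no pairing of mice of the same number. Correlations of their deviations ran from -0.33 to 0.31, with 3 of 7 above 0.1, and cannot settle whether they were paired. The replicate block, which uses up degrees of freedom, gave 314 higher and 272 lower genes in all against 494 and 515. With the block Rock2, Notch3 and Lum had adjusted p of 0.0835, 0.0511 and 0.0534. Without a filter on low counts Gkn3 had 0.0529. Spearman's rho gave a median over pairs of 0.86 in the mice labelled LPAR2-/- and 0.89 in WT mice, and for fibroblast, striated muscle and neuronal genes 0.79, 0.00 and -0.14 with the set in the mice labelled LPAR2-/-. Pearson r with the set in these mice was 0.93 for fibroblast, -0.28 for choroid plexus, -0.43 for striated muscle and -0.54 for neuronal genes. Leaving out 1 mouse labelled LPAR2-/- moved this Pearson r to 0.85 to 0.99 for fibroblast and -0.70 to 0.23 for choroid plexus genes. It moved to -0.54 to 0.30 for striated muscle and -0.87 to -0.36 for neuronal genes. In WT mice the Pearson r without a mouse ran from 0.0054 to 0.67 for striated muscle and from -0.88 to -0.12 for neuronal genes. The causes were not tested. Over all genes, leaving out a mouse gave 275 to 660 higher and 292 to 725 lower genes, and it lowered a count by over 1.5 times for mice 1 and 5 labelled LPAR2-/- and WT mice 2, 4, 5 and 6. Among the 9 contractile genes depth limits Cnn1 most, at 8 to 46 counts per WT mouse.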

Other observations

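Choroid plexus, the other vascularised tissue that a hippocampal dissection can carry, did not follow the contractile genes in the mice labelled LPAR2-/-. Its 5 tested markers had a mean with an r of -0.28 to the set in these mice and of 0.86 in WT mice. Without mouse 2 labelled LPAR2-/- the former was 0.23. Ttr (transthyretin) had between 20 and 4726 counts in the mice labelled LPAR2-/-, with the highest in mouse 2, and between 20 and 120 in WT mice. The other 5 of the 10 markers did not pass the filter on low counts, with up to 110 counts (Clic6) in a mouse labelled LPAR2-/- and 43 for Folr1. Neuronal genes summed to 5761 to 7040 CPM in the mice labelled LPAR2-/- and 5875 to 7184 CPM in WT mice, with an r of -0.54 and -0.42.

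Several striated muscle genes share protein families with the contractile set. Of 12 genes 4 were tested (Acta1, Myh6, Myh7 and Tnnt2). None was called by edgeR (2 with an unadjusted p under 0.05, against 22.4% of all genes). The mean of these 4 had an r of -0.43 and 0.17 with the set. Acta1 had 75 to 122 counts. Tnnt3 and Tnni2 had at most 4 counts in any mouse. Of the 5 blood genes, the haemoglobin genes Hbb-bs, Hbb-bt, Hba-a1 and Hba-a2 were listed at 0 counts in every mouse. The reason for these 0 counts was not tested, and they do not show that the libraries held no blood. Alas2 had 17 to 73 counts in the mice labelled LPAR2-/- and 17 to 44 in WT mice, with an r of 0.07 and 0.28.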
